A study of Mus musculus with 18 samples.

Results

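The 48 genes described here carry a cell through mitosis. They encode the mitotic cyclins and their kinases, the spindle checkpoint, the ubiquitin ligase machinery that starts anaphase, the kinetochore, the spindle motors, the cytokinesis proteins and the condensins. They were chosen by symbol out of the 23418 genes of the expression table. The choice used knowledge of their function and was made with earlier results of these data known. All 48 reached the filter on low values (at least 1 RPKM in at least 3 of 18 libraries), as did 11238 genes in all. RPKM is a read count divided by the gene length that the table lists and by the depth of the library. For some members the listed length exceeds that of the gene's transcripts in GENCODE M21 (Tpx2 is listed at 21309 bases, Ect2 at 12162 and Kif20a at 10686). The excess length lowers their levels beside those of other genes and leaves ratios of RPKM within a gene unchanged. Their fitted effects can still be too small, because the log scale of the tests below understates the change of low genes. The cells were C57BL/6 mouse leukemia cells, grown in culture and transformed by an MLL fusion: MLL-AF9, MLL-AF6 or MLL-AF1p. Each of the 3 populations was sequenced after 6 days in 6 µM MI-2-2, a small molecule that blocks the binding of menin to MLL, and after 6 days in DMSO alone. Every group, DMSO groups included, carried an MLL fusion and 0.25% DMSO, and each of the 6 groups had 3 libraries. On day 3 the medium, with compound or DMSO, was renewed and the density of viable cells was set back to its starting value. The labels do not say whether the libraries of a group came from separate cultures or how many transformed lines stand behind a construct, so p-values measure the spread between libraries, which may be technical. By its title, the series asks about the inhibitor across fusions with different partners.

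In a cycling cell the genes of mitosis are transcribed late, in G2 and M, and are kept low in G1 and in cells that have left the cycle. Cyclin B with Cdk1 drives entry into mitosis, the spindle checkpoint holds the anaphase-promoting complex back until every kinetochore is attached, and the complex with Cdc20 then destroys securin and cyclin B. Foxm1 and the MuvB complex with B-Myb are known activators of these genes, and blood cells shut them down as they mature and stop dividing. In bulk RNA, fewer cells in G2 and M and less of a transcript in each such cell cannot be told apart, and no value below separates them.

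The promoters of these genes share short sequences that the choice of members did not use. The motifs searched, on both strands of the 300 bases from 250 before to 50 after the annotated start, were TTTGAA (the core of the cell cycle genes homology region), CCAAT (the NF-Y box) and 4 spellings of an E2F site (TTTCCCGC, TTTGGCGC, TTTCGCGC and TTTGCCGC). RefSeq promoters of the GRCm38.p6 build were matched by symbol for 40 members, with 43 starts between them. Aurkb, Tpx2, Foxm1, Incenp, Ccna2 and Smc4 were not matched. Kif20a and Cdc25c lie on chromosome 18, which was left out for the members. TTTGAA was present in 74.4% of the members' promoters, against 17.9% of all 32851 promoters and 12.0% of the promoters of the genes kept by the filter. CCAAT was present in 79.1% of the members' promoters, against 37.4% of all promoters and 38.4% of those of the genes kept. Both were present in 67.4% of the members' promoters, against 6.95% of all promoters and 4.97% of those of the genes kept. One of the E2F spellings was found in 3 of the 43 members' promoters (6.98%), against 2.26% and 4.10%. Counting the start listed first for each gene, 34 members held at least 1 match. Of the 36 TTTGAA matches, 27 were centred within 50 bases of the start, while 67 of the 70 CCAAT matches lay before it.

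**Figure D1:**
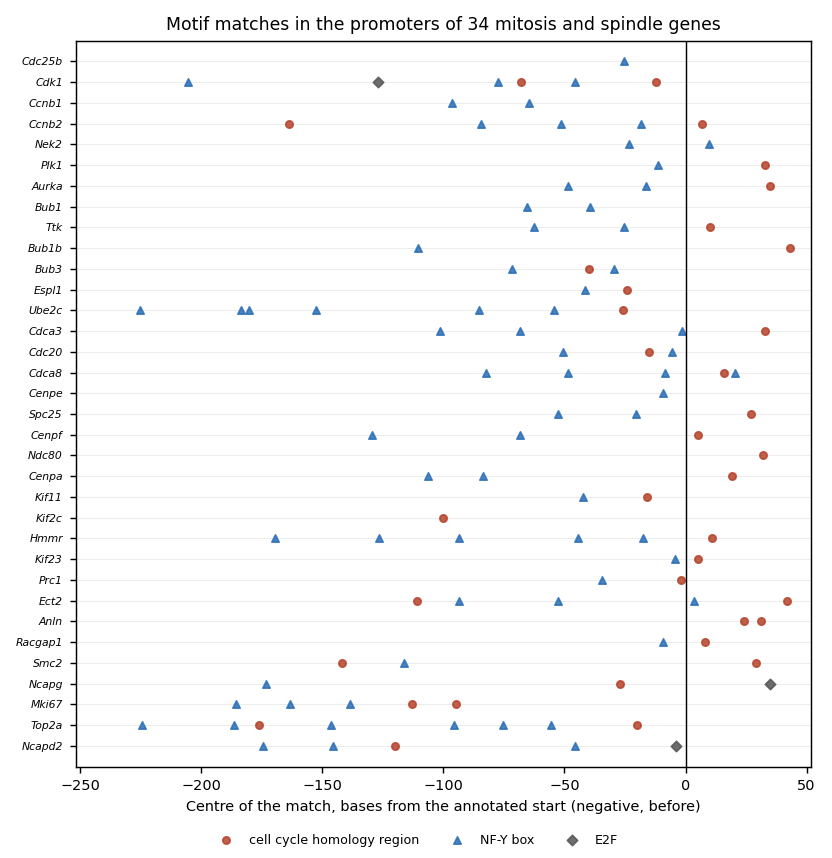
Position of each motif match in the promoters of the 34 members that hold one, in bases from the annotated start (horizontal axis, negative before the start), 1 gene per line and 1 symbol per motif. Circles (TTTGAA) gather around the start, 67 of the 70 triangles (CCAAT) lie before it, and diamonds mark the E2F spellings in 3 genes.

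The promoters of 6 members are printed below because they are the 4 with the lowest and the 2 with the highest mean response to MI-2-2 over the 3 populations among the members matched. Each runs from 170 bases before to 30 bases after the start, on the strand of the gene (RefSeq, GRCm38.p6), with every TTTGAA and CCAAT match, on either strand, in capitals. The reverse complements read TTCAAA and ATTGG.
Bub1b, chr2:118598041-118598240, plus strand: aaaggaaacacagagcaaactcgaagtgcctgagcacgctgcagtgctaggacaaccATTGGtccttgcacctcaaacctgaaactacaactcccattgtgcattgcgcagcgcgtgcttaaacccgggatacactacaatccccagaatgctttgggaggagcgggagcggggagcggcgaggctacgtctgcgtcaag
Bub3, chr7:131560200-131560399, plus strand: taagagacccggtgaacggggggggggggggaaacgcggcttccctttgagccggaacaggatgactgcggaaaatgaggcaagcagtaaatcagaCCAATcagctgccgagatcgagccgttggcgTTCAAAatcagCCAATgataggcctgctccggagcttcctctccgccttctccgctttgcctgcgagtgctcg
Top2a, chr11:99024160-99024359, minus strand: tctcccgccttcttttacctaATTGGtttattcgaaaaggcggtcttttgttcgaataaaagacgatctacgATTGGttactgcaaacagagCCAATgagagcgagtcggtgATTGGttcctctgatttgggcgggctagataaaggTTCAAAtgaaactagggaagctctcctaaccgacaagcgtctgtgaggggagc
Cdca8, chr4:124936888-124937087, minus strand: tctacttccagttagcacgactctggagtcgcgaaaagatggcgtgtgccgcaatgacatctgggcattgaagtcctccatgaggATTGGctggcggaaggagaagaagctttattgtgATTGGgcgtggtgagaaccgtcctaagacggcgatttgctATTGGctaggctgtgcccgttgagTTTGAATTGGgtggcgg
Kif23, chr9:61946770-61946969, minus strand: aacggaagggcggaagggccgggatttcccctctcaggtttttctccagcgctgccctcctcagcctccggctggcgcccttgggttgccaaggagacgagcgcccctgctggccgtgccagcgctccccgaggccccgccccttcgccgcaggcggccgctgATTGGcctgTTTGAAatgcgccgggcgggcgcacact
Cdc25b, chr2:131186778-131186977, plus strand: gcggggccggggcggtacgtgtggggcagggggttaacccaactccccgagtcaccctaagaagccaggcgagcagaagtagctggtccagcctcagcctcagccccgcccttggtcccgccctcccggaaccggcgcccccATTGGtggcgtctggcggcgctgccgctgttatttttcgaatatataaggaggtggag
In Cdca8 a TTTGAA match and a CCAAT match share a base. Kif23, the member with the highest mean response, holds 1 match of each kind, as does Bub1b, the member with the lowest, whose TTTGAA match lies beyond the stretch shown. Over the 40 matched members, the median MI-2-2 effect of the 29 with TTTGAA was 0.36 (MLL-AF9), 0.22 (MLL-AF6) and 0.04 (MLL-AF1p) on the log2 scale, and that of the 11 without was 0.49, 0.31 and 0.06. A match is a description of letters and was not tested as a site.

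Libraries held between 21180926 and 56304997 counted reads, with the 6 MLL-AF1p libraries the deepest. Blast and progenitor markers summed to between 126 and 440.1 RPKM in every library, and the defining B cell, erythroid and stromal markers were at or near 0. Across all genes, 28.5% rose and 27.9% fell with MI-2-2 in MLL-AF9 cells, 18% rose and 38.9% fell in MLL-AF6 cells, and 19.1% rose and 26.3% fell in MLL-AF1p cells. Under median centring of the libraries the MLL-AF6 split was 2441 genes up and 3384 down, in place of 2025 up and 4377 down. The MI-2-2 library numbered 2 stood above its group in these genes: 44 of 48 members lay above their group mean in it in MLL-AF9 cells, 45 in MLL-AF6 cells and 35 in MLL-AF1p cells. Counts without that number in every construct stand beside the main counts of rises, falls and differing effects over the 48 genes.

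With MI-2-2, most of the mitosis and spindle genes rose in MLL-AF9 cells, 25 of 48 rose in MLL-AF6 cells, and in MLL-AF1p cells 34 did not pass the test. Each effect is MI-2-2 minus DMSO on the log2(RPKM + 0.5) scale, a scale that understates the change of low genes. The words rose and fell are used where limma's test gave a p below 0.05 after Benjamini-Hochberg adjustment over all 11238 genes kept. In MLL-AF9 cells 35 of the 48 members rose and 0 fell, beside a background of 28.5% of all genes rising and 27.9% falling. All 48 estimates lay above 0, so no threshold on p could give a fall in this fit. Limma-voom on recovered reads also gave 0 falls. The count of rises was 32 without the MI-2-2 library numbered 2. The median of the 48 estimates was 0.37, against a median of -0.00 over all genes tested. In MLL-AF6 cells 25 members rose and 2 fell (backgrounds 18% and 38.9%), with a median of 0.22 beside -0.16 over all genes. That count of rises was 18 without the MLL-AF6 MI-2-2 library numbered 2 and 16 when that number was left out of every construct, and the median was 0.15 in both fits. In MLL-AF1p cells 9 rose and 5 fell (backgrounds 19.1% and 26.3%), with a median of 0.09 beside -0.06 over all genes. The rising share there was close to the background. With median centring the MLL-AF1p counts were 12 rises and 3 falls (2489 and 2562 of all 11238 genes). Without the MI-2-2 library numbered 2 of every construct they were 8 and 7 (1791 and 2431 of all genes). Fitted on the MLL-AF1p libraries alone, 15 rose and 9 fell (2826 and 4026 of all genes). The rises added in that fit were Ccna2, Cdc25b, Foxm1, Kif23, Mki67 and Racgap1, and the falls added were Ect2, Kif11, Mad2l1 and Ndc80. The 5 falls of the main fit were 3 without MLL-AF1p MI-2-2 number 1 or 3 or MLL-AF1p DMSO number 3.

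The share of all counted reads that came from the 48 genes was 0.576 ± 0.033% with MI-2-2 and 0.447 ± 0.0064% with DMSO in MLL-AF9 cells (SD, n = 3 each). In MLL-AF6 cells it was 0.5001 ± 0.034% with MI-2-2 and 0.438 ± 0.014% with DMSO, and in MLL-AF1p cells 0.734 ± 0.015% with MI-2-2 and 0.715 ± 0.022% with DMSO. The MI-2-2 and DMSO libraries did not overlap in MLL-AF9 or MLL-AF6 cells and overlapped in MLL-AF1p cells. The MLL-AF1p libraries, treated or not, all lay above the others.

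**Figure D2:**
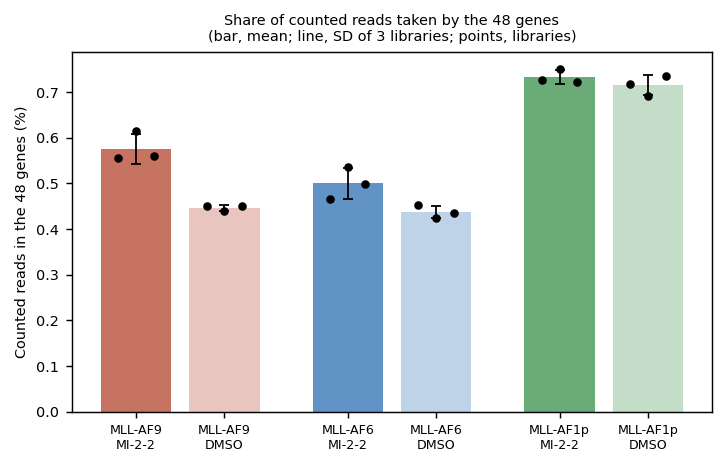
Share of counted reads (percent, vertical axis) in the 48 genes, by population, with MI-2-2 left of DMSO in each pair; bars are means, lines the SD of 3 libraries and points the libraries. The MLL-AF9 MI-2-2 libraries lie between 0.555% and 0.614%, all above their DMSO libraries, which lie between 0.439% and 0.451%.

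Of the 6 cyclins, kinases and phosphatases that start mitosis, 4 rose in MLL-AF9 cells, 2 in MLL-AF6 cells and 2 in MLL-AF1p cells, and none fell in these tests. This count and the later counts by role rest on few genes and have the same background. Of all genes, 28.5% rose and 27.9% fell in MLL-AF9 cells. The shares were 18% and 38.9% in MLL-AF6 cells, and 19.1% and 26.3% in MLL-AF1p cells. Ccna2, cyclin A2, which acts in S phase and early mitosis, had 41.7, 50.5 and 41.3 RPKM with MI-2-2, against 20.2, 26.7 and 24.2 RPKM with DMSO in MLL-AF9 cells. MLL-AF6 cells gave it 36.9, 48.5 and 41.6 RPKM with MI-2-2, against 28.2, 29.4 and 29.1 RPKM with DMSO. In MLL-AF1p cells it had 67.8, 74.9 and 67.8 RPKM with MI-2-2, against 59.2, 58.2 and 61.7 RPKM with DMSO. Every treated library lay above every DMSO library of its population, and the fitted rises were 0.90 (SE 0.11, adjusted p = 3.4e-06) and 0.53 (SE 0.11, adjusted p = 0.00055) in MLL-AF9 and MLL-AF6 cells, while the MLL-AF1p difference of 0.23 missed the threshold (adjusted p = 0.089). Cdc25b, a phosphatase that activates Cdk1, had 15.5, 14.2 and 15.0 RPKM with MI-2-2, against 9.71, 7.76 and 9.10 RPKM with DMSO in MLL-AF9 cells and 15.9, 14.2 and 17.3 RPKM with MI-2-2, against 11.0, 7.22 and 8.04 RPKM with DMSO in MLL-AF6 cells. Both differences passed, at 0.72 and 0.83 (adjusted p = 9.7e-05 and 2.7e-05). In MLL-AF1p cells Cdc25b differed by 0.30 and missed the threshold (adjusted p = 0.054).

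Ccnb1, cyclin B1, the cyclin that drives entry into mitosis, rose in MLL-AF9 and MLL-AF1p cells. It had 64.5, 72.7 and 64.3 RPKM with MI-2-2, against 57.6, 46.9 and 50.3 RPKM with DMSO in MLL-AF9 cells and 89.6, 93.4 and 90.5 RPKM with MI-2-2, against 74.8, 67.0 and 73.9 RPKM with DMSO in MLL-AF1p cells. The groups did not overlap in either, and the rises were 0.38 and 0.34 (adjusted p = 0.00066 and 0.0022). In MLL-AF6 cells its libraries overlapped and the difference was 0.15 (adjusted p = 0.10). Cdk1, the kinase itself, averaged 43.8 ± 5.16 RPKM with MI-2-2 and 33.4 ± 3.74 RPKM with DMSO in MLL-AF9 cells (SD, n = 3 each), a rise of 0.39 (adjusted p = 0.0035), and its differences of 0.22 in MLL-AF6 and 0.12 in MLL-AF1p cells did not pass. Cdc25c, the phosphatase paralog of Cdc25b, passed in MLL-AF1p cells, where it averaged 11.6 ± 0.46 RPKM with MI-2-2 and 9.10 ± 0.47 RPKM with DMSO, a rise of 0.33 (adjusted p = 0.0068). It did not pass in the other populations, though its effect in MLL-AF1p minus that in MLL-AF9 cells, 0.22, also missed the threshold (adjusted p = 0.20). Ccnb2, cyclin B2, passed in none of the 3 populations, with differences of 0.14 (MLL-AF9), 0.14 (MLL-AF6) and 0.02 (MLL-AF1p). Of the 50-base stretches of Ccnb1 transcripts in GENCODE M21, 23.4% also occur in transcripts of other genes, processed copies of it among them, so its counts are uncertain. The labels describe more than 1 kind of run, which leaves the read length unsettled, and the share applies to reads of 50 bases.

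Foxm1, the transcription factor that activates many of the other members, rose in MLL-AF9 and MLL-AF6 cells. It had 16.7, 17.5 and 16.3 RPKM with MI-2-2, against 8.15, 9.77 and 9.02 RPKM with DMSO in MLL-AF9 cells. Its values in MLL-AF6 cells were 15.2, 18.4 and 17.1 RPKM with MI-2-2, against 12.0, 9.47 and 11.1 RPKM with DMSO. Neither population's groups overlapped, and the rises were 0.87 (SE 0.09, adjusted p = 5.6e-07) and 0.62 (SE 0.09, adjusted p = 2.4e-05). MLL-AF1p cells gave it 21.9, 20.8 and 20.4 RPKM with MI-2-2, against 18.8, 18.1 and 18.5 RPKM with DMSO, and the difference of 0.18 did not pass (adjusted p = 0.097).

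**Figure D3:**
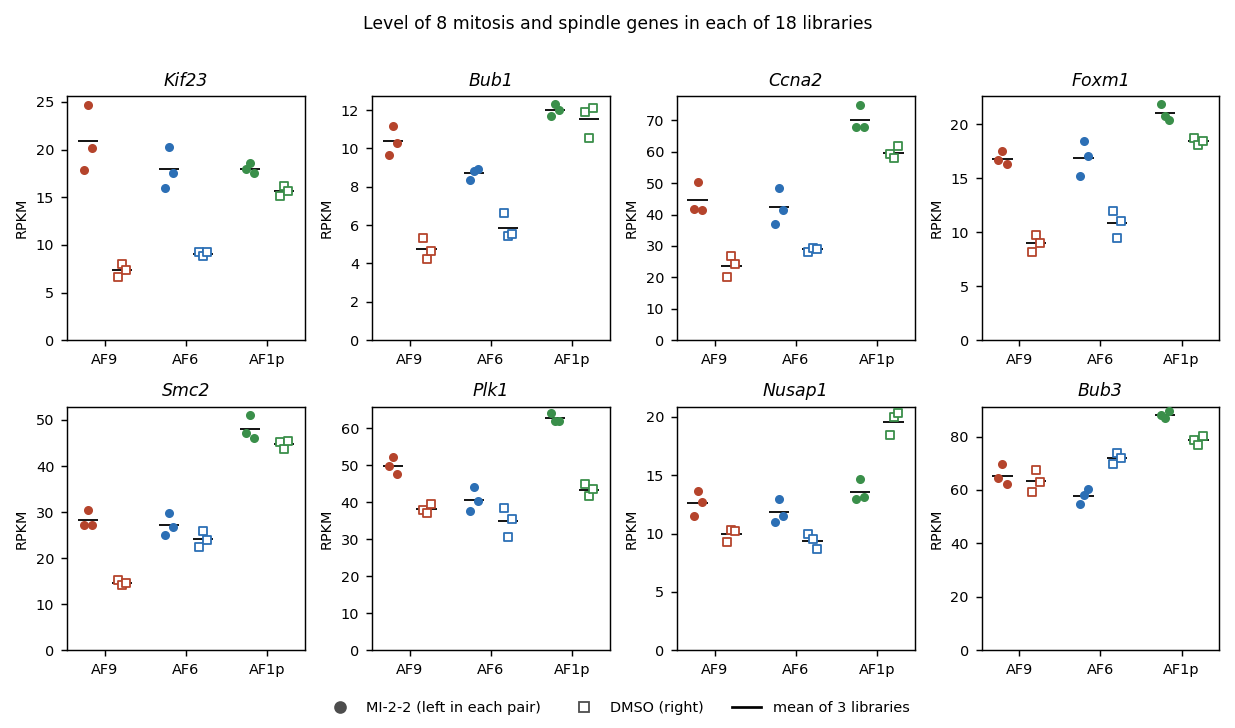
RPKM (vertical axis, from 0) of 8 members in each of the 18 libraries, by population, with MI-2-2 (filled circles) left of DMSO (open squares) and the mean of 3 libraries as a line. Kif23, Bub1, Ccna2 and Foxm1 lie higher with MI-2-2 in MLL-AF9 and MLL-AF6 cells, Nusap1 lies lower with MI-2-2 in MLL-AF1p cells, and Bub3 lies lower with MI-2-2 in MLL-AF6 cells.

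Among the other mitotic kinases, Plk1 rose in all 3 populations. Plk1, polo-like kinase 1, which acts on centrosomes, kinetochores and cytokinesis, had 49.7, 52.2 and 47.5 RPKM with MI-2-2, against 37.8, 37.1 and 39.5 RPKM with DMSO in MLL-AF9 cells. In MLL-AF1p cells it had 64.1, 61.8 and 61.9 RPKM with MI-2-2, against 45.0, 41.8 and 43.5 RPKM with DMSO. Those groups did not overlap, and the rises were 0.38 and 0.52 (SE 0.08 each, adjusted p = 0.00053 and 4.9e-05). Its values in MLL-AF6 cells were 37.6, 44.0 and 40.4 RPKM with MI-2-2, against 38.4, 30.6 and 35.5 RPKM with DMSO, groups that overlapped in 1 DMSO library, with a rise of 0.22 (adjusted p = 0.020). Nek2, a centrosome kinase, rose by 0.49 in MLL-AF9 cells (adjusted p = 4.0e-05), with 14.5 ± 0.78 RPKM with MI-2-2 and 10.2 ± 0.58 RPKM with DMSO, and did not pass elsewhere. Aurka, the spindle pole kinase, and Tpx2, which activates it on the spindle, passed in no population, with differences between 0.04 and 0.12.

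The spindle checkpoint genes gave mixed calls. In MLL-AF9 cells 3 of 5 rose, in MLL-AF6 cells 1 rose and 1 fell, and in MLL-AF1p cells 1 rose and 1 fell. A rise of 1 in 5 is near the share of all genes that rose, 18% in MLL-AF6 and 19.1% in MLL-AF1p cells. Bub1, a checkpoint kinase of the kinetochore, had 9.66, 11.2 and 10.3 RPKM with MI-2-2, against 5.35, 4.24 and 4.63 RPKM with DMSO in MLL-AF9 cells. MLL-AF6 cells gave it 8.35, 8.82 and 8.93 RPKM with MI-2-2, against 6.63, 5.46 and 5.53 RPKM with DMSO. In both, every treated library lay above every DMSO library, with rises of 1.06 (SE 0.09, adjusted p = 8.6e-08) and 0.53 (SE 0.09, adjusted p = 0.00012). In MLL-AF1p cells it had 11.7, 12.3 and 12.0 RPKM with MI-2-2, against 11.9, 10.6 and 12.1 RPKM with DMSO, which overlapped.

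Bub3, the protein that holds Bub1 and BubR1 at the kinetochore, fell in MLL-AF6 cells and rose in MLL-AF1p cells. It had 54.7, 58.2 and 60.3 RPKM with MI-2-2, against 69.7, 73.8 and 71.9 RPKM with DMSO in MLL-AF6 cells. Its values in MLL-AF1p cells were 87.9, 87.1 and 89.5 RPKM with MI-2-2, against 78.9, 76.8 and 80.1 RPKM with DMSO. The groups did not overlap in either, and the changes were -0.31 (adjusted p = 0.00033) and 0.17 (adjusted p = 0.031). Bub1b, which encodes BubR1, had 35.6, 35.1 and 34.4 RPKM with MI-2-2, against 47.5, 40.6 and 46.1 RPKM with DMSO in MLL-AF1p cells, a change of -0.34 on the log2 scale (adjusted p = 0.0075), and overlapped in the other populations. Mad2l1, which encodes the checkpoint protein Mad2, averaged 33.3 ± 3.56 RPKM with MI-2-2 and 23.1 ± 2.10 RPKM with DMSO in MLL-AF9 cells, a rise of 0.51 (adjusted p = 0.00029). Its estimate in MLL-AF1p cells was -0.22, where all treated libraries lay below the DMSO libraries without passing (adjusted p = 0.067). Ttk, the Mps1 kinase, rose by 0.36 in MLL-AF9 cells (adjusted p = 0.0031) and its estimates elsewhere were 0.00 (MLL-AF6) and -0.01 (MLL-AF1p).

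Among the genes that start anaphase, 2 of 5 rose in MLL-AF9 cells, 3 of 5 in MLL-AF6 cells and 2 of 5 in MLL-AF1p cells, and none fell. Ube2c, the ubiquitin-conjugating enzyme of the anaphase-promoting complex, rose in all 3 populations. It had 128, 142 and 123 RPKM with MI-2-2, against 96.8, 111 and 103 RPKM with DMSO in MLL-AF9 cells. MLL-AF6 cells gave it 90.6, 118 and 94.4 RPKM with MI-2-2, against 85.5, 84.6 and 87.4 RPKM with DMSO, and in MLL-AF1p cells 178, 179.8 and 174 RPKM with MI-2-2, against 144, 137 and 140.2 RPKM with DMSO. No pair of groups overlapped, and the rises were 0.34, 0.22 and 0.34 (SE 0.08 each, adjusted p = 0.0026, 0.031 and 0.0035).

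Cdc20, the activator through which the complex finds its targets at anaphase, rose in MLL-AF1p cells, with 68.3, 66.0 and 67.4 RPKM with MI-2-2, against 46.8, 50.4 and 47.2 RPKM with DMSO. That rise was 0.48 (SE 0.08, adjusted p = 0.00014). In MLL-AF9 cells it had 45.5, 51.2 and 45.9 RPKM with MI-2-2, against 45.3, 44.0 and 42.7 RPKM with DMSO, close together though not overlapping, and in MLL-AF6 cells the groups overlapped. Cdca3, a trigger of mitotic entry that is itself degraded through the complex, had 68.3, 77.8 and 75.6 RPKM with MI-2-2, against 57.3, 45.9 and 49.6 RPKM with DMSO in MLL-AF6 cells, a rise of 0.54 (adjusted p = 0.00015), and did not pass in the other populations. Espl1, separase, which cuts cohesin, had 12.0, 12.7 and 12.8 RPKM with MI-2-2, against 8.00, 8.36 and 8.40 RPKM with DMSO in MLL-AF9 cells and 8.13, 10.2 and 9.23 RPKM with MI-2-2, against 7.51, 6.97 and 7.46 RPKM with DMSO in MLL-AF6 cells. It rose by 0.57 and 0.30 (adjusted p = 4.9e-06 and 0.0018). Pttg1, securin, the inhibitor of separase, passed in no population, with differences of 0.09, 0.19 and 0.01.

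The chromosomal passenger complex, which corrects faulty attachments, rose in 3 of 4 members in MLL-AF9 cells, 2 in MLL-AF6 cells and 1 in MLL-AF1p cells. Aurkb, its kinase, averaged 51.4 ± 2.51 RPKM with MI-2-2 and 40.4 ± 4.24 RPKM with DMSO in MLL-AF9 cells, and 47.3 ± 3.33 RPKM with MI-2-2 and 38.8 ± 2.44 RPKM with DMSO in MLL-AF6 cells. Its rises were 0.35 and 0.28 (adjusted p = 0.0021 and 0.0085). Birc5, survivin, rose by 0.37 and 0.45 in the same populations (adjusted p = 0.0015 and 0.00027), without overlap of the groups. Incenp, the scaffold, rose by 0.17 in MLL-AF9 and by 0.22 in MLL-AF1p cells (adjusted p = 0.017 and 0.0045). Cdca8, borealin, passed in no population: its means in MLL-AF9 cells were 66.1 ± 5.57 RPKM with MI-2-2 and 66.2 ± 6.58 RPKM with DMSO.

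Centromere and kinetochore genes rose in 5 of 6 members in MLL-AF9 cells, 4 in MLL-AF6 cells and 1 in MLL-AF1p cells. Nuf2, a subunit of the Ndc80 complex that grips microtubules, rose in all 3. It had 26.6, 29.4 and 27.6 RPKM with MI-2-2, against 19.6, 18.2 and 18.2 RPKM with DMSO in MLL-AF9 cells. In MLL-AF6 cells it had 23.0, 25.9 and 24.9 RPKM with MI-2-2, against 22.5, 19.7 and 19.8 RPKM with DMSO, and in MLL-AF1p cells 35.4, 37.9 and 35.7 RPKM with MI-2-2, against 30.9, 30.4 and 30.9 RPKM with DMSO. The groups did not overlap in any population, and the rises were 0.57, 0.25 and 0.24 (SE 0.07 each, adjusted p = 2.6e-06, 0.0046 and 0.0079). Cenpe, the kinetochore motor, had 11.0, 12.5 and 10.9 RPKM with MI-2-2, against 7.18, 7.53 and 7.87 RPKM with DMSO in MLL-AF9 cells and 9.604, 11.5 and 9.92 RPKM with MI-2-2, against 7.34, 7.71 and 7.27 RPKM with DMSO in MLL-AF6 cells. Its rises were 0.58 and 0.44 (adjusted p = 1.1e-05 and 0.00015). Cenpa, the centromeric histone, rose by 0.23 and 0.28 in these populations, and Cenpf, a large outer kinetochore protein, by 0.36 and 0.22. Spc25, a further subunit of the Ndc80 complex, rose by 0.56 in MLL-AF9 cells (adjusted p = 0.00060). Ndc80 itself passed in no population, with estimates of 0.28 (MLL-AF9), 0.26 (MLL-AF6) and -0.27 (MLL-AF1p) (adjusted p = 0.053, 0.067 and 0.068).

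All 5 spindle motors and microtubule proteins rose in MLL-AF9 cells, and 4 of 5 rose in MLL-AF6 cells. In MLL-AF1p cells 1 rose and 1 fell. Kif11, the motor that pushes spindle poles apart, had 32.5, 37.1 and 33.5 RPKM with MI-2-2, against 25.0, 22.1 and 23.6 RPKM with DMSO in MLL-AF9 cells, a rise of 0.54 (adjusted p = 6.3e-06). It rose by 0.22 in MLL-AF6 cells (adjusted p = 0.012). Nusap1, which bundles microtubules near chromosomes, had 11.5, 13.7 and 12.7 RPKM with MI-2-2, against 9.27, 10.3 and 10.2 RPKM with DMSO in MLL-AF9 cells. Its values in MLL-AF6 cells were 11.0, 13.0 and 11.5 RPKM with MI-2-2, against 9.94, 9.54 and 8.66 RPKM with DMSO. MLL-AF1p cells gave it 13.0, 14.6 and 13.1 RPKM with MI-2-2, against 18.4, 19.996 and 20.3 RPKM with DMSO. The groups did not overlap in any population, with treated libraries above DMSO in MLL-AF9 and MLL-AF6 cells and below it in MLL-AF1p cells. The changes were 0.33, 0.32 and -0.51 (SE 0.08 each, adjusted p = 0.0033, 0.0042 and 0.00014), and the MLL-AF1p value was the lowest of any member in any population.

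Kif20a, a motor of the central spindle, had 6.73, 8.10 and 6.93 RPKM with MI-2-2, against 4.81, 4.08 and 4.10 RPKM with DMSO in MLL-AF9 cells and 9.07, 9.42 and 9.07 RPKM with MI-2-2, against 7.06, 6.09 and 7.09 RPKM with DMSO in MLL-AF1p cells. It rose by 0.68 and 0.42 (adjusted p = 8.8e-06 and 0.0012). In MLL-AF6 cells its difference of 0.15 did not pass. Kif2c, a motor that takes microtubules apart at the centromere, rose by 0.52 in MLL-AF9 and 0.42 in MLL-AF6 cells, and Hmmr, a spindle pole protein, by 0.41 and 0.19.

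The central spindle and cytokinesis genes held the member with the largest rise. In MLL-AF9 cells 4 of 5 rose, in MLL-AF6 cells all 5 rose, and in MLL-AF1p cells 1 fell and none rose. Kif23, the motor subunit of centralspindlin, had 17.9, 24.7 and 20.1 RPKM with MI-2-2, against 6.67, 7.95 and 7.36 RPKM with DMSO in MLL-AF9 cells. In MLL-AF6 cells it had 15.98, 20.3 and 17.6 RPKM with MI-2-2, against 9.22, 8.81 and 9.22 RPKM with DMSO. Its values in MLL-AF1p cells were 17.9, 18.6 and 17.5 RPKM with MI-2-2, against 15.1, 16.1 and 15.6 RPKM with DMSO. The groups did not overlap in any population, and the differences were 1.44 (SE 0.10, adjusted p = 1.2e-08), 0.94 (adjusted p = 1.7e-06) and 0.20, the last of which missed the threshold (adjusted p = 0.12).

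Racgap1, the partner of Kif23 in centralspindlin, had 12.0, 13.9 and 13.3 RPKM with MI-2-2, against 10.4, 9.33 and 9.84 RPKM with DMSO in MLL-AF6 cells, a rise of 0.39 (adjusted p = 0.00015). In MLL-AF9 cells it had 15.7, 17.8 and 15.7 RPKM with MI-2-2, against 16.03, 14.7 and 14.6 RPKM with DMSO, which overlapped. Anln, anillin, a scaffold of the contractile ring, had 18.6, 21.5 and 18.4 RPKM with MI-2-2, against 15.1, 13.6 and 16.1 RPKM with DMSO in MLL-AF9 cells and 14.1, 16.8 and 15.4 RPKM with MI-2-2, against 11.8, 12.2 and 11.6 RPKM with DMSO in MLL-AF6 cells, and it rose by 0.38 and 0.37 (adjusted p = 0.00061 and 0.00081). MLL-AF1p cells gave it 19.1, 19.5 and 19.0 RPKM with MI-2-2, against 22.6, 22.9 and 24.4 RPKM with DMSO, a change of -0.27 (adjusted p = 0.0089). Anln, like Nusap1, rose in MLL-AF9 and MLL-AF6 cells and fell in MLL-AF1p cells, a pattern whose share over all genes was not counted. Prc1, which bundles the central spindle, rose by 0.62 and 0.28 in MLL-AF9 and MLL-AF6 cells, and Ect2, the exchange factor that switches on RhoA at the furrow, by 0.47 and 0.25.

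The condensins, Top2a and Mki67, which shape the mitotic chromosome, rose in 6 of 7 members in MLL-AF9 cells. In MLL-AF6 cells 2 rose and 1 fell, and in MLL-AF1p cells 2 fell and none rose. The 2 falls of 7 are near the 26.3% of all genes that fell in MLL-AF1p cells. Smc2, a core subunit of both condensins, had 27.3, 30.5 and 27.2 RPKM with MI-2-2, against 15.2, 14.3 and 14.6 RPKM with DMSO in MLL-AF9 cells, a rise of 0.92 (SE 0.07, adjusted p = 4.2e-08). In MLL-AF6 cells it had 25.1, 29.9 and 26.8 RPKM with MI-2-2, against 22.4, 25.9 and 24.1 RPKM with DMSO, which overlapped, and in MLL-AF1p cells it differed by 0.10 (adjusted p = 0.30). Smc4, its partner, had 74.3, 87.8 and 79.5 RPKM with MI-2-2, against 67.2, 65.5 and 67.1 RPKM with DMSO in MLL-AF9 cells, and 51.6, 59.3 and 55.1 RPKM with MI-2-2, against 67.5, 75.4 and 67.1 RPKM with DMSO in MLL-AF6 cells. It rose by 0.27 in the MLL-AF9 cells (adjusted p = 0.0043) and changed by -0.34 in the MLL-AF6 cells (adjusted p = 0.00084), without overlap in either.

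Top2a, topoisomerase II alpha, which untangles sister DNA, had 86.0, 97.1 and 87.0 RPKM with MI-2-2, against 69.3, 77.8 and 76.7 RPKM with DMSO in MLL-AF9 cells and 129, 136 and 127 RPKM with MI-2-2, against 149, 149.6 and 163 RPKM with DMSO in MLL-AF1p cells. The changes were 0.27 and -0.23 (adjusted p = 0.010 and 0.028). Ncapg, a condensin I subunit, averaged 17.6 ± 1.10 RPKM with MI-2-2 and 11.8 ± 0.51 RPKM with DMSO in MLL-AF9 cells, and 27.9 ± 0.84 RPKM with MI-2-2 and 31.3 ± 0.28 RPKM with DMSO in MLL-AF1p cells. It changed by 0.55 and -0.17 (adjusted p = 8.7e-07 and 0.026). Ncapd2, of the same complex, rose by 0.27 in MLL-AF9 cells, and Ncaph, its kleisin, by 0.31 in MLL-AF6 cells. Mki67, the Ki-67 protein that coats mitotic chromosomes, rose by 0.37 in MLL-AF9 and 0.37 in MLL-AF6 cells (adjusted p = 0.0065 and 0.0067).

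**Figure D4:**
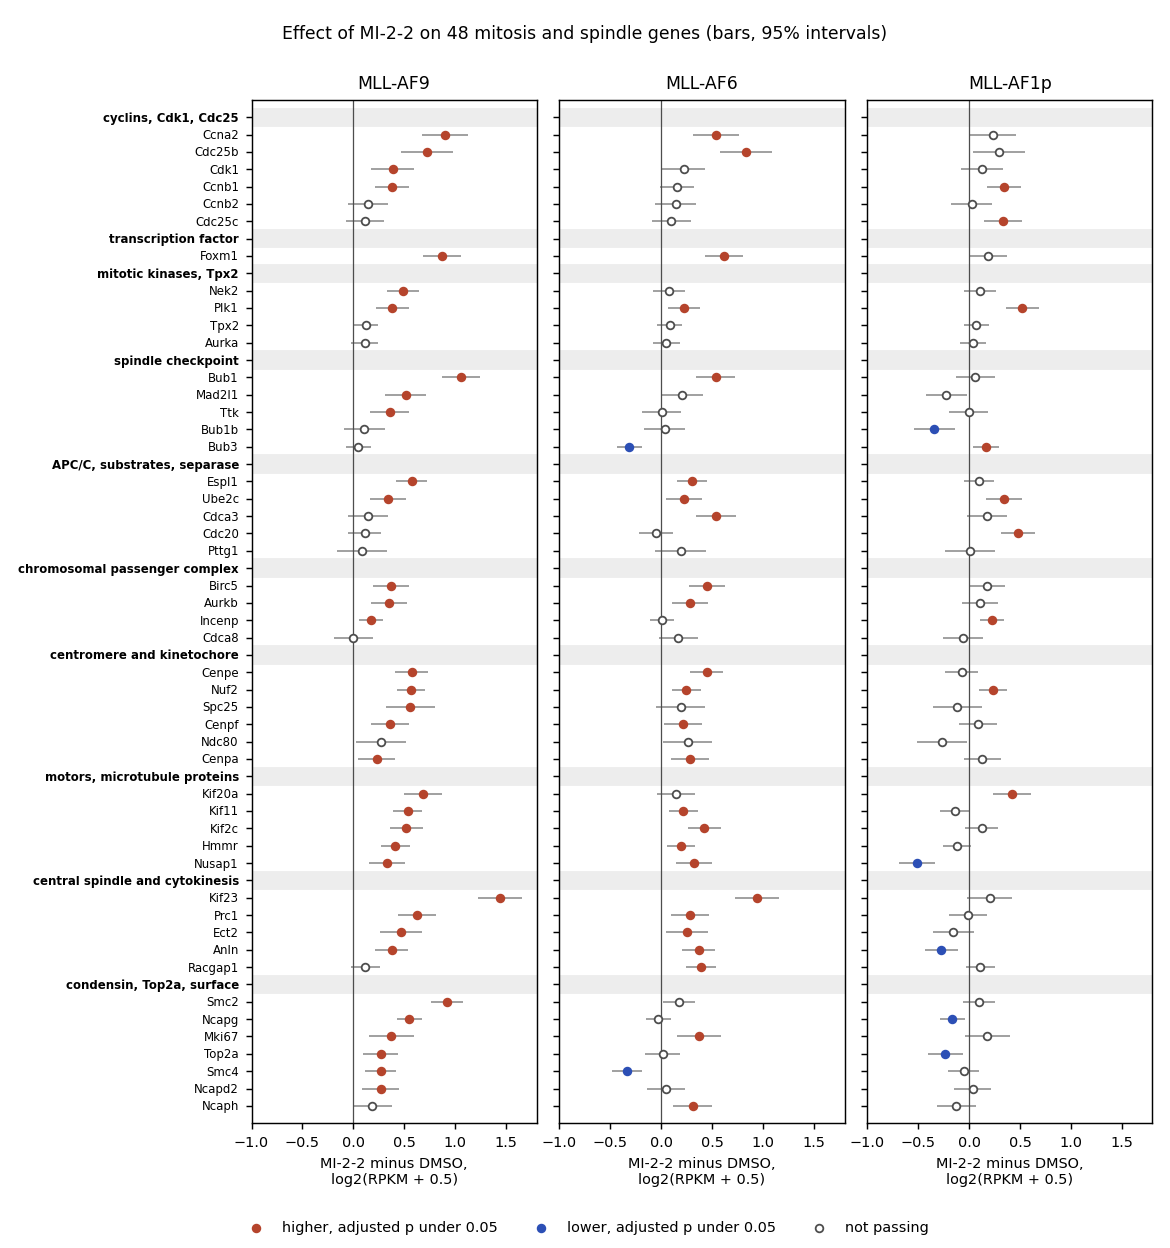
Effect of MI-2-2 (MI-2-2 minus DMSO on the log2(RPKM + 0.5) scale, horizontal axis) on the 48 members, grouped by role, in each population; lines are 95% intervals of limma's fit, filled points pass an adjusted p of 0.05 and open points do not. All 48 points lie above 0 in MLL-AF9 cells, 44 in MLL-AF6 cells and 31 in MLL-AF1p cells.

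Across populations, Plk1, Ube2c and Nuf2 rose in all 3, 3 of 48 members beside 8.64% of all genes. Ccnb2, Aurka, Tpx2, Cdca8, Ndc80 and Pttg1 passed in none. Of the 76 calls, 60 were kept under every alternative tried and 16 were lost under at least 1. Fitted alone, MLL-AF6 cells lost the rises of Cenpf, Hmmr, Plk1 and Ube2c (adjusted p = 0.056 to 0.13), and MLL-AF9 cells that of Incenp. Median centring cost the calls of Cenpa, Incenp, Ncapd2 and Top2a in MLL-AF9 cells (adjusted p = 0.051 to 0.19). In MLL-AF1p cells it cost those of Ncapg and Top2a. No filter cost those of Cenpa (MLL-AF9), of Cenpf, Ect2 and Ube2c (MLL-AF6) and of Top2a (MLL-AF1p). Quantile normalization cost that of Bub3 (MLL-AF1p). Without the MLL-AF6 MI-2-2 library numbered 2, the MLL-AF6 rises of Cenpf, Ect2, Hmmr, Kif11, Plk1, Prc1 and Ube2c no longer passed (adjusted p = 0.066 to 0.20). Without a DMSO library of MLL-AF6 cells the same held for Hmmr, Prc1 and Ube2c (number 1), for Cenpa, Cenpf, Ect2, Plk1 and Ube2c (number 2), and for Cenpf, Ect2 and Ube2c (number 3), with adjusted p between 0.050 and 0.16. Without MLL-AF6 MI-2-2 number 3 it held for Cenpf and Ect2 (adjusted p = 0.055 to 0.083). Cenpf, at an adjusted p of 0.046, also lost its MLL-AF6 call without MLL-AF9 MI-2-2 number 1 or 3 or any MLL-AF1p library other than MI-2-2 number 2 (adjusted p = 0.052 to 0.059). With MI-2-2 number 2 left out of every construct, Aurkb and Cenpa joined the 7 (adjusted p = 0.052 to 0.20 over the 9). In MLL-AF9 cells, Cenpa lost its call without any 1 of MI-2-2 numbers 1 and 2 and DMSO numbers 2 and 3, Ncapd2 without MI-2-2 number 2 or DMSO number 3, Top2a without MI-2-2 number 2 and Incenp without DMSO number 1 (adjusted p = 0.051 to 0.12). In MLL-AF1p cells, Bub3 lost its call without any 1 of the 6 libraries, Ncapg without MI-2-2 number 1 or 3 or DMSO number 2 or 3, and Top2a without MI-2-2 number 1 or 3 or DMSO number 3 (adjusted p = 0.052 to 0.11).

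Whether the effect of MI-2-2 differed between populations was tested for each member. A lower effect here is a lower signed value, so it also covers members whose estimates have opposite signs. The effect was lower in MLL-AF1p than in MLL-AF9 cells for 24 members and higher for 1 (backgrounds 21.4% and 13.6%), with a median difference of -0.33 beside -0.07 over all genes. Kif23 had the largest difference, with effects of 0.20 in MLL-AF1p and 1.44 in MLL-AF9 cells, a difference of -1.24 (SE 0.14, adjusted p = 1.9e-05). Bub1 differed by -0.998 (adjusted p = 3.7e-05), Nusap1 by -0.84 (adjusted p = 8.7e-05) and Smc2 by -0.82 (adjusted p = 3.4e-05). Cdc20 was the 1 member with a higher effect in MLL-AF1p cells, by 0.37 (adjusted p = 0.017). Nusap1 was among those with estimates of opposite sign, at -0.51 in MLL-AF1p and 0.33 in MLL-AF9 cells. With median centring these counts were 18 and 3, and without MI-2-2 number 2 of every construct they were 21 and 1.

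The effect was lower in MLL-AF6 than in MLL-AF9 cells for 13 members and higher for 2. The lower ones were 27.1% of members, a share near the 24% of all genes, and 9.02% of all genes were higher. There was a median difference of -0.16 that was close to the -0.14 over all genes. Smc4, at -0.34 in MLL-AF6 and 0.27 in MLL-AF9 cells, and Bub3, at -0.31 and 0.05, were among those of opposite sign. Smc2 differed by -0.75 (adjusted p = 7.7e-05), Smc4 by -0.61 (adjusted p = 0.00036) and Ncapg by -0.58 (adjusted p = 8.3e-05). Cdca3 and Racgap1 were the 2 with a higher effect in MLL-AF6 cells, by 0.39 and 0.27 (adjusted p = 0.031 and 0.037). With median centring the counts were 5 lower and 2 higher, with quantile normalization 4 and 2, and without MI-2-2 number 2 of every construct 12 and 0. Both higher calls were lost without MLL-AF9 MI-2-2 number 3, MLL-AF9 DMSO number 1, MLL-AF6 MI-2-2 number 2 or 3, or MLL-AF6 DMSO number 2 or 3. A single one was left without MLL-AF9 MI-2-2 number 1 or 2, MLL-AF1p MI-2-2 number 1 or 2, or MLL-AF1p DMSO number 3. Against MLL-AF1p cells, the effect in MLL-AF6 cells was higher for 17 members and lower for 4 (backgrounds 11.6% and 19.5%), while median centring gave 18 and 2 and quantile normalization 23 and 2. Nusap1, Kif23 and Anln led the higher ones, at 0.83, 0.74 and 0.64 (adjusted p = 0.00012, 0.0014 and 0.00048), and Cdc20, Bub3, Plk1 and Smc4 were the lower ones, at -0.53, -0.48, -0.30 and -0.28. The count of 17 was 9 without MLL-AF6 MI-2-2 number 2, 10 without MLL-AF1p MI-2-2 number 1 or 3 or MLL-AF1p DMSO number 3, and 11 without MLL-AF6 MI-2-2 number 3 or MLL-AF6 DMSO number 2 or 3. Without MI-2-2 number 2 of every construct the counts were 8 higher and 4 lower. The count of 4 was 2 without any 1 of MLL-AF9 MI-2-2 number 3, MLL-AF9 DMSO number 3, MLL-AF6 MI-2-2 number 1 or 3, the 3 MLL-AF1p MI-2-2 libraries and MLL-AF1p DMSO number 3. The 3 comparisons share libraries in pairs and are not independent. Asked as 1 test over the 3 populations, the effect differed for 31 of 48 members, or 64.6%, beside 52.8% of all genes. Without MI-2-2 number 2 of every construct 25 members differed.

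**Figure D5:**
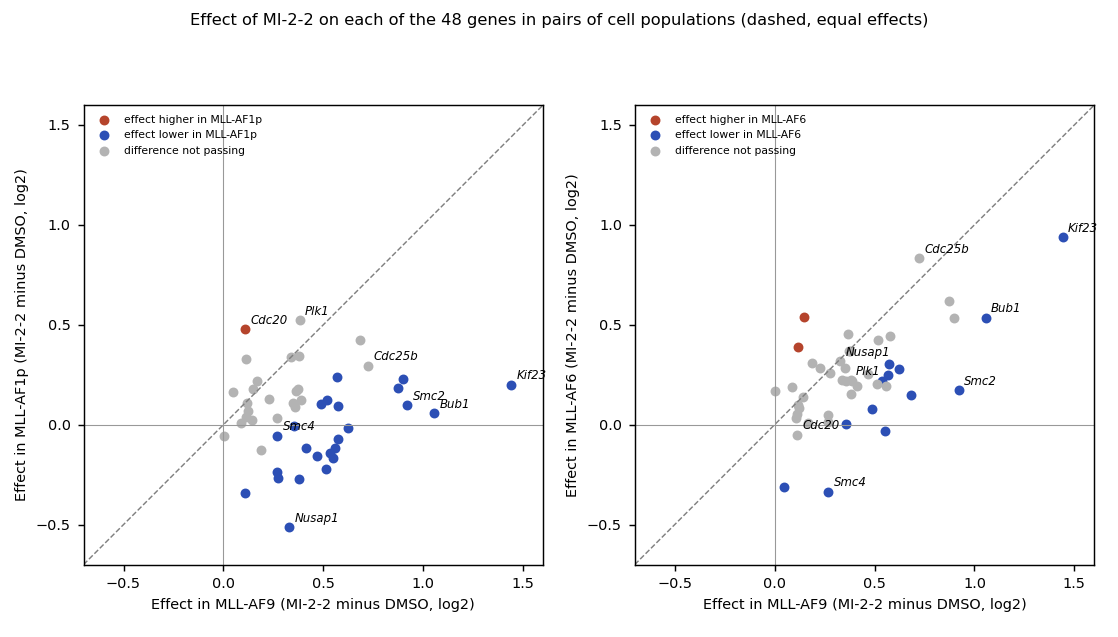
Effect of MI-2-2 on each member (MI-2-2 minus DMSO, log2 scale) in MLL-AF1p cells (left panel, vertical axis) and MLL-AF6 cells (right panel, vertical axis) against that in MLL-AF9 cells (horizontal axes); colours mark members whose effects differ at an adjusted p of 0.05, and the dashed line marks equal effects. In the left panel 24 members are coloured as lower and 1, Cdc20, as higher in MLL-AF1p cells.

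Before any treatment effect, MLL-AF1p cells differed from the other populations in the level of these genes. In DMSO, MLL-AF1p cells stood above MLL-AF9 cells for 43 members and below for 1 (backgrounds 36.5% and 28.6%), with a median difference of 0.59 beside 0.07 over all genes. Smc2 had 45.3, 43.8 and 45.5 RPKM in MLL-AF1p DMSO libraries, against 15.2, 14.3 and 14.6 RPKM in MLL-AF9 DMSO libraries, a difference of 1.58 (SE 0.07, adjusted p = 9.1e-11). Ncapg had 31.0, 31.6 and 31.4 RPKM in MLL-AF1p DMSO libraries, against 12.0, 11.3 and 12.2 RPKM in MLL-AF9 DMSO libraries, a difference of 1.37 (adjusted p = 2.8e-11). These libraries lay far apart, and the same held for Mad2l1 (1.35), Ccna2 (1.32) and Kif11 (1.26). Pttg1 was the 1 member below, with 8.17, 8.86 and 7.34 RPKM in MLL-AF1p DMSO libraries, against 13.0, 9.03 and 11.0 RPKM in MLL-AF9 DMSO libraries (-0.40, adjusted p = 0.0065). Cdc20, Cdca3, Racgap1 and Cdc25c did not pass in that comparison.

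MLL-AF6 cells in DMSO stood below MLL-AF1p cells for 45 members and above for 0 in limma's test (backgrounds 28.8% and 23.7%), with a median of -0.71 beside -0.03 over all genes. The count above was also 0 at an unadjusted p below 0.05 and with limma-voom on recovered reads. Cenpe had the largest difference, with 7.34, 7.71 and 7.27 RPKM in MLL-AF6 DMSO libraries, against 16.5, 18.9 and 17.9 RPKM in MLL-AF1p DMSO libraries (-1.20, adjusted p = 4.0e-08). Bub3, Incenp and Pttg1 did not pass there. Between MLL-AF6 and MLL-AF9 cells in DMSO, 12 members were higher and 13 lower in MLL-AF6 cells. These were 25% and 27.1% of members, near the backgrounds of 29.1% and 24.5%. Their median difference over the 48 genes was -0.03, beside 0.04 over all genes. The higher ones included Smc2 (0.69), Ncapg (0.57), Spc25 (0.44) and Mad2l1 (0.42), and the lower ones Cdca3 (-0.60), Racgap1 (-0.59), Pttg1 (-0.37) and Cenpa (-0.37). With median centring that split was 7 higher and 18 lower, and with quantile normalization 7 and 15. The DMSO libraries used here also enter the effects above, so the levels and the effects are given side by side and not related to each other. The label of the construct is the label of the population, so fusion partner, transformed line and library depth cannot be told apart between populations.

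Other genes of mitosis, from lists chosen by function with earlier results of these data known, gave the following counts. Beside them stand all genes tested, of which 28.5% rose and 27.9% fell in MLL-AF9 cells, 18% and 38.9% in MLL-AF6 cells, and 19.1% and 26.3% in MLL-AF1p cells. Of 31 other kinetochore and centromere genes tested, 18 rose and 1 fell in MLL-AF9 cells, 6 rose and 2 fell in MLL-AF6 cells, and 1 rose and 7 fell in MLL-AF1p cells. Mlf1ip, a subunit of the inner kinetochore, rose in all 3, by 0.45, 0.62 and 0.33. Of 28 other spindle motors and spindle proteins, 19 rose and 1 fell in MLL-AF9 cells, 11 rose and 2 fell in MLL-AF6 cells, and 6 rose and 4 fell in MLL-AF1p cells. Haus8, of the augmin complex, and Tacc3, a spindle microtubule protein, rose in all 3. Tacc3 averaged 50.8 ± 1.45 RPKM with MI-2-2 and 34.7 ± 0.97 RPKM with DMSO in MLL-AF9 cells, and rose by 0.54, 0.46 and 0.45, against 0.66, 0.64 and 0.25 for Haus8. Of 20 other mitotic kinases, phosphatases and regulators, 14 rose and 1 fell in MLL-AF9 cells, 5 rose and 2 fell in MLL-AF6 cells, and 4 rose and 1 fell in MLL-AF1p cells. Ccnf, cyclin F, rose by 0.78, 0.52 and 0.58, and Gsg2, the haspin kinase, by 0.28, 0.15 and 0.24.

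Of 15 further subunits and cofactors of the anaphase-promoting complex, 1 rose and 5 fell in MLL-AF9 cells, 1 rose and 7 fell in MLL-AF6 cells, and 1 rose and 6 fell in MLL-AF1p cells. Cdc26 averaged 37.4 ± 1.37 RPKM with MI-2-2 and 59.1 ± 3.86 RPKM with DMSO in MLL-AF9 cells, and changed by -0.65, -0.57 and -0.41. Anapc16 changed by -0.47, -0.71 and -0.34. These falls stand beside backgrounds of 27.9%, 38.9% and 26.3% of all genes. Of 12 condensin II and cohesin genes, 4 rose and none fell in MLL-AF9 cells, 1 rose and 5 fell in MLL-AF6 cells, and none rose and 3 fell in MLL-AF1p cells.

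Of 23 genes that control G2 and M transcription, 10 rose and 2 fell in MLL-AF9 cells, 5 rose and 9 fell in MLL-AF6 cells, and 7 rose and 6 fell in MLL-AF1p cells. E2f8, an atypical E2F repressor, rose by 0.79, 0.34 and 0.26, and Tfdp2, a dimerization partner of E2F proteins, changed by -0.65, -0.61 and -0.72. Of 33 DNA replication genes, which act in S phase, 18 rose and 2 fell in MLL-AF9 cells, 1 rose and 6 fell in MLL-AF6 cells, and 2 rose and 1 fell in MLL-AF1p cells. Of all genes tested, 28.5% rose and 27.9% fell in MLL-AF9 cells, 18% rose and 38.9% fell in MLL-AF6 cells, and 19.1% rose and 26.3% fell in MLL-AF1p cells, which is the background for both lists. The medians of the replication genes were 0.28, -0.02 and -0.02, against 0.37, 0.22 and 0.09 for the mitosis and spindle genes.

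Most of the neutrophil, monocyte and macrophage markers tested rose with MI-2-2 in each population. Of the 48 mitotic genes, 9 rose and 5 fell in MLL-AF1p cells, with a median of 0.09 beside -0.06 over all genes. Whether they changed as a set was not tested. The shares of all genes that rose were 28.5% (MLL-AF9), 18% (MLL-AF6) and 19.1% (MLL-AF1p). Those that fell were 27.9%, 38.9% and 26.3%, in the same order. All 12 neutrophil markers tested rose in MLL-AF9 and MLL-AF6 cells and 10 of 12 in MLL-AF1p cells. In MLL-AF9 cells their summed level ranged from 25158 to 29109.9 RPKM with MI-2-2 and from 2873 to 4065 RPKM with DMSO. In MLL-AF6 cells it ranged from 18849 to 20659 RPKM with MI-2-2 and from 2269 to 3129 RPKM with DMSO, and in MLL-AF1p cells from 31030.4 to 35958 RPKM with MI-2-2 and from 3380.5 to 3832 RPKM with DMSO. Of 12 monocyte and macrophage markers tested, 9 rose in MLL-AF9 cells, 9 in MLL-AF6 cells and 11 in MLL-AF1p cells, and 1 fell in each. Of the 15 listed, C1qa and C1qc were at 0 in every DMSO library, and C1qb in those of MLL-AF9 and MLL-AF1p cells. The 15 summed to 5286 to 6697 RPKM with MI-2-2 and 1811 to 3531 RPKM with DMSO in MLL-AF9 cells. The sums were 12234 to 16180.2 RPKM with MI-2-2 and 5565 to 8014 RPKM with DMSO in MLL-AF6 cells, and 7251 to 7722 RPKM with MI-2-2 and 4482 to 4583 RPKM with DMSO in MLL-AF1p cells. Of 6 blast and progenitor markers tested, 2 rose and 4 fell in MLL-AF9 cells, 1 rose and 4 fell in MLL-AF6 cells, and 3 fell in MLL-AF1p cells. The 7 in the table summed to 126 to 133 RPKM with MI-2-2 and 235 to 281 RPKM with DMSO in MLL-AF9 cells. They summed to 149 to 158 RPKM with MI-2-2 and 333 to 440.1 RPKM with DMSO in MLL-AF6 cells, and to 219.7 to 234 RPKM with MI-2-2 and 302 to 315 RPKM with DMSO in MLL-AF1p cells. The 8 mast cell and basophil markers summed to 8.77 to 16.3 RPKM with MI-2-2 and 16.8 to 69.95 RPKM with DMSO in MLL-AF9 cells. They summed to 5.603 to 8.28 RPKM with MI-2-2 and 13.5 to 35.1 RPKM with DMSO in MLL-AF6 cells, and to 18.5 to 18.9 RPKM with MI-2-2 and 16.2 to 19.0 RPKM with DMSO in MLL-AF1p cells. Mcpt8 and Hdc made up most of these sums, and Hdc stood at 51.98 RPKM in 1 MLL-AF9 DMSO library. Tpsb2, Cma1 and Fcer1a were at 0 in every group, as was the T cell marker Cd3e, and the T cell markers summed to at most 2.39 RPKM in any library. The part of these markers in the changes of the mitotic genes was not tested.

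Reads of 12 members may include reads of a gene on the opposite strand, whose exons overlap theirs in GENCODE M21; the counting is not stated to use strand, so these cannot be told apart. They are Ccna2, Plk1, Cdc20, Kif20a, Nek2, Ube2c, Cdca8, Ncapg, Prc1, Cdc25b, Cdc25c and Nusap1. Besides Ccnb1, the members with the most sequence shared with other transcripts were Cdc20, at 10.4% of its 50-base stretches, and Plk1, at 6.56%.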

How the data were processed

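Messenger RNA of 18 libraries was sequenced. The tools named, per the submitters' processing notes, were Bowtie2 2.0.0.7 and CASAVA 1.8.2, with edgeR and HTSeq, on mm9. The deposited values are RPKM per gene, made by the authors from read counts; the role of each tool is not given in the sources used here. Dividing each value by its smallest step gave whole reads (100% within 0.05), which set the depth of 21180926 to 56304997 reads per library. Genes with at least 1 RPKM in at least 3 libraries were kept, and log2(RPKM + 0.5) was fitted with limma 3.58.1 in R 4.3.3, with 6 group means, a trended prior and 12 residual degrees of freedom, and adjusted by Benjamini-Hochberg over 11238 genes. On simulated data for the MLL-AF9 comparison (10599 genes tested, 200 genes given a change) the fit recovered 97.8% to 100% of log2 changes of 1 and 50% to 61.7% of changes of 0.5. Far more genes passed in the data than were changed in the simulation. The 48 genes and the lists were chosen with earlier results of these data known. Genes outside the 48 are named by a rule on size among those that passed, within each list. Figures and descriptions used Python 3.11.15, pandas 2.3.3 and matplotlib 3.10.9. Alternatives were pseudocounts of 0.1 and 1, no filter, median centring, quantile normalization, a constant prior, a replicate block, limma-voom on recovered reads, each comparison fitted alone, each library left out, and MI-2-2 number 2 left out of every construct, the last chosen after seeing the data.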

Additional observations from a re-analysis of the deposited data

Results flagged for a closer look

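The effect of MI-2-2 differed between the 3 populations for 31 of the 48 genes in limma's F test of the difference itself (adjusted p from 1.5e-05 to 0.035), and each of those is listed here with the distance between its highest and lowest log2 effect over the populations. The background is 52.8% of all genes in the same test. The distances of 0.60 or more were Kif23 1.24, Bub1 1.00, Nusap1 0.84, Smc2 0.82, Mad2l1 0.74, Ncapg 0.72, Foxm1 0.69, Kif11 0.68, Spc25 0.67, Ccna2 0.67, Anln 0.65, Cenpe 0.65, Prc1 0.64, Ect2 0.63 and Smc4 0.61. For each of these 15 the highest effect was in MLL-AF9 cells. The others were Ndc80 0.54, Cdc25b 0.54, Kif20a 0.54, Hmmr 0.53, Cdc20 0.53, Top2a 0.50, Bub3 0.48, Espl1 0.48, Bub1b 0.45, Ncaph 0.43, Nek2 0.41, Kif2c 0.39, Cdca3 0.39, Ttk 0.36, Nuf2 0.33 and Racgap1 0.28. Of these 16, Cdc20 and Bub3 had their highest effect in MLL-AF1p cells, Cdc25b, Ncaph, Cdca3 and Racgap1 had theirs in MLL-AF6 cells, and the other 10 had theirs in MLL-AF9 cells. No explanation was tested for any of them.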

How the results depend on the processing

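Of 144 results for single genes in the 3 effects, 100 gave the same call under all 28 alternatives. In 43 instances an estimate changed sign with neither value passing. Leaving out 1 library at a time gave, in MLL-AF9 cells, 32 to 36 rises, 0 falls and medians of 0.31 to 0.39. In MLL-AF6 cells it gave 18 to 30 rises, 2 falls and medians of 0.15 to 0.28, and in MLL-AF1p cells 8 to 10 rises, 3 to 7 falls and medians of 0.050 to 0.098. For the difference between MLL-AF6 and MLL-AF9 the range was 0 to 2 higher and 9 to 18 lower, for MLL-AF1p and MLL-AF9 1 higher and 22 to 26 lower, and for MLL-AF6 and MLL-AF1p 9 to 20 higher and 2 to 5 lower. For the DMSO levels it was 8 to 13 higher and 12 to 16 lower (MLL-AF6 minus MLL-AF9), 40 to 43 higher and 1 lower (MLL-AF1p minus MLL-AF9) and 0 higher and 42 to 47 lower (MLL-AF6 minus MLL-AF1p). The F test called 24 to 33.

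Median centring moved the MLL-AF9 median to 0.29, the MLL-AF6 median to 0.30, the MLL-AF1p falls to 3, the MLL-AF6 minus MLL-AF9 lower effects to 5, the MLL-AF1p minus MLL-AF9 higher effects to 3, the MLL-AF6 minus MLL-AF1p lower effects to 2 and the MLL-AF6 minus MLL-AF9 higher DMSO levels to 7. Quantile normalization gave 0.31 for the MLL-AF6 median, and 4, 2, 2 and 7 for those last 4 counts. A constant prior gave 2 MLL-AF6 minus MLL-AF1p lower effects. No filter gave 1 higher effect for MLL-AF6 minus MLL-AF9 and 10 for MLL-AF6 minus MLL-AF1p. Fitted alone, MLL-AF1p cells had 15 rises and 9 falls, beside 2826 rises and 4026 falls over all 11238 genes in that fit. Without MI-2-2 number 2 of every construct, MLL-AF6 cells had 16 rises and a median of 0.15, and the higher effects numbered 0 for MLL-AF6 minus MLL-AF9 and 8 for MLL-AF6 minus MLL-AF1p. The cause was not tested.

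Whether the replicate numbers pair the libraries is not settled, and the main fit did not use them. The correlations of same-numbered MI-2-2 and DMSO deviations for numbers 1, 2 and 3 were 0.28, 0.46 and 0.014 (MLL-AF9), 0.49, 0.56 and 0.00079 (MLL-AF6), and 0.098, 0.21 and 0.026 (MLL-AF1p). In every population MI-2-2 numbers 1 and 2 correlated best with the DMSO library of their own number. MI-2-2 number 3 correlated best with DMSO number 1, at 0.34 (MLL-AF9), 0.23 (MLL-AF6) and 0.15 (MLL-AF1p). With a replicate block 36, 30 and 11 members rose and 0, 2 and 7 fell. Of all 11238 genes, 3475, 2242 and 2449 rose and 3439, 4806 and 3489 fell in that fit. With 3 libraries a group, changes of 0.5 on the log2 scale were often missed in the simulation. Far fewer genes changed there than passed in the data, so its rates need not hold for these calls. Low genes rest on few reads.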
